A study of Drosophila melanogaster with 12 samples.

Results

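Autophagy and V-ATPase genes were followed in the wing imaginal disc of Drosophila melanogaster, the larval epithelial sac that gives rise to wing and notum. They are the gene rows of the expression table whose FlyBase symbol starts with Atg and a digit or with Vha, plus ref(2)P and Mitf. Of 17869 gene rows, 54 met this rule: 21 autophagy genes with ref(2)P counted among them, 32 V-ATPase genes, and Mitf. A mean of at least 10 normalized counts over all libraries was asked for before a gene was tested, which left 41 of the 54 among 10179 tested genes: 20 autophagy genes, 20 V-ATPase genes and Mitf. No row was matched to the symbol Vha44, the gene of V-ATPase subunit C, which is not analysed here.

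Autophagy encloses cytoplasm in a growing membrane sac, the autophagosome, and delivers it to the lysosome for breakdown. The Atg1 kinase complex starts the process, the Vps34 lipid kinase complex marks the membrane and Atg9 and Atg2 supply lipid, while enzymes related to those of ubiquitin couple Atg8 to the membrane, where cargo receptors such as ref(2)P bind. The V-ATPase is the proton pump that acidifies the lysosome and other compartments: its V1 sector in the cytosol splits ATP and its V0 sector in the membrane carries protons, and the transcription factor Mitf is known in flies to raise transcription of V-ATPase genes.

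Total RNA depleted of ribosomal RNA was sequenced from pools of 150 discs of third-instar larvae, taken 7 days after egg laying. All 3 groups of 4 biological replicates carried nub-Gal4, a driver active in the nubbin domain around the wing pouch, and the red fluorescent reporter UAS-mRFP. In the first group the label adds RNAi transgenes for ecd and for Xrp1, in the second the one for ecd only, and the control group carried nothing beyond driver and reporter. The gene ecd encodes a partner of the core spliceosome protein Prp8, Xrp1 encodes a stress-induced bZIP transcription factor, and the study asks how Xrp1 shapes the response to a failing spliceosome. Whole discs were pooled, so each library also holds tissue outside the driver's domain, and Xrp1 RNAi without ecd RNAi was not analysed here.

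Per library, the sum of normalized counts ran from 26.5 to 35.4 M. Libraries labelled ecd RNAi did not have less ecd transcript than control (log2 fold change 0.13 ± 0.09, adjusted p = 0.251), so directions given for ecd RNAi rest on the label. Xrp1 stood at 4447 to 6048 normalized counts with ecd plus Xrp1 RNAi, at 18985 to 22964 with ecd RNAi and at 4511 to 5078 in control. The summed level of 7 fat body markers was 1799 to 2959 in ecd plus Xrp1 RNAi, against 2761, 1218, 24518 and 28767 in ecd RNAi replicates 1 to 4 and 1315, 6646, 76585 and 32717 in control replicates 1 to 4. Replicates 3 and 4 of ecd RNAi and of control, where this sum was high, are the 4 fat-body-rich libraries, and results that change without them are given without them. Only replicates 1 and 2 of ecd RNAi and of control then remain. A call lost there may also reflect these smaller groups, which was not tested. None of the 31 cell type markers examined was listed at 0 in any library. Below, ± is the SD over 4 libraries after a mean and the standard error after a log2 fold change, and a fold change is on the log2(normalized count + 1) scale with the group named first on top. To pass, a gene needed an adjusted p below 0.05 in limma over all 10179 genes.

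The comparison of ecd RNAi with control asks which transcripts of both systems change with the ecd RNAi label. Autophagy genes passed mostly as higher and V-ATPase genes mostly as lower. Over all tested genes 47.8% passed in this comparison, 22.4% as higher and 25.4% as lower, with a median log2 fold change of -0.04. Of the 20 autophagy genes 10 rose and 2 fell, with a median of 0.18, and of the 20 V-ATPase genes 2 rose and 7 fell, with a median of -0.17. The share that passed in either direction was 60.0% of the autophagy genes and 45.0% of the V-ATPase genes, so V-ATPase genes passed about as often as genes in general. The groups did not overlap for 14 autophagy and 9 V-ATPase genes, against 44.7% of all genes. Without the 4 fat-body-rich libraries 10 autophagy genes rose and 1 fell (median 0.26), and 2 V-ATPase genes rose and 6 fell (median -0.14). The median of all genes was then -0.01. The shares of 22.4% and 25.4% are from all 12 libraries, and those without the 4 are not given here.

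The comparison of ecd plus Xrp1 RNAi with ecd RNAi asks which of these levels shift when Xrp1 RNAi is added. A change between the RNAi groups is always that of ecd plus Xrp1 RNAi over ecd RNAi. This comparison shares the 4 ecd RNAi libraries with the one above, so opposite signs between the comparisons are in part built in and the values are only set side by side. Over all tested genes 47.3% passed, 26.7% as higher and 20.6% as lower, with a median of -0.01. Of the autophagy genes 4 rose and 9 fell (median -0.19), and of the V-ATPase genes 7 rose and 3 fell (median 0.11). The groups did not overlap for 10 autophagy and 9 V-ATPase genes, against 43.7% of all genes. Without the 4 fat-body-rich libraries 2 autophagy genes rose and 10 fell (median -0.23), and 3 V-ATPase genes rose and 4 fell (median 0.05). The median of all genes was then 0.01. The shares of 26.7% and 20.6% are from all 12 libraries, and those without the 4 are not given here.

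**Figure D1:**
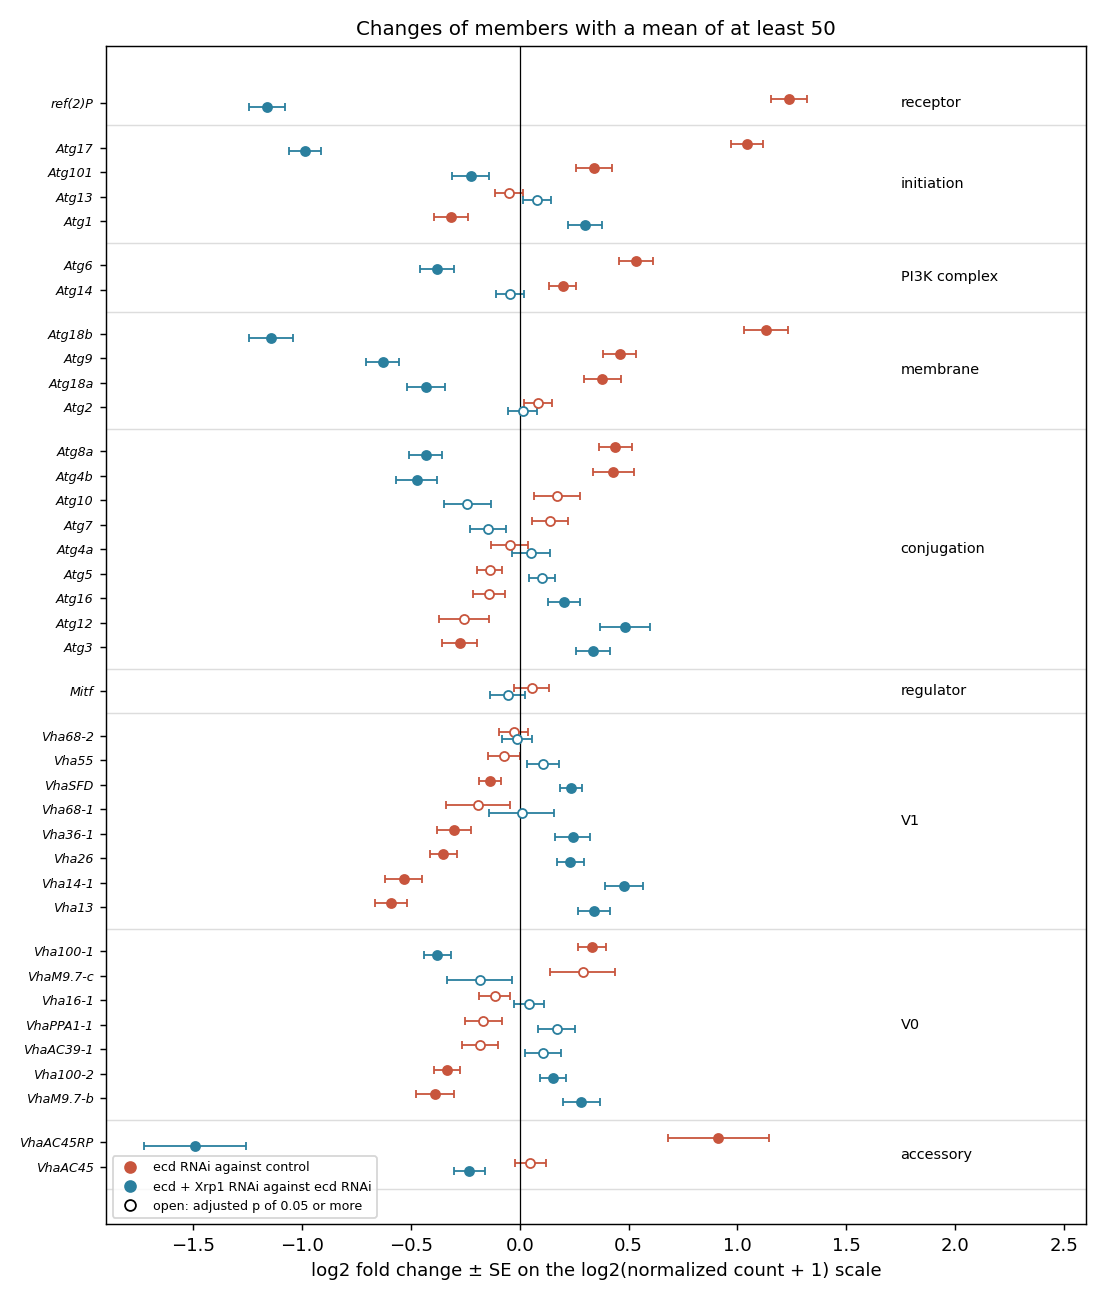
Log2 fold change ± SE of each tested member with a mean of at least 50 normalized counts, by role, for ecd RNAi against control (red) and ecd plus Xrp1 RNAi against ecd RNAi (blue), with open points where the adjusted p was 0.05 or more. The receptor ref(2)P stood at 1.24 with the ecd RNAi label, and all V1 subunits shown stood below 0 in that comparison; both comparisons share the ecd RNAi libraries.

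Library by library, the median log2 ratio of the 20 autophagy genes to their control mean was 0.01, -0.00, 0.04 and 0.10 in the ecd plus Xrp1 RNAi replicates, 0.24, 0.34, 0.11 and 0.19 in the ecd RNAi replicates and 0.07, 0.03, -0.05 and -0.05 in the control replicates. The same median over the 20 V-ATPase genes was -0.06, -0.06, -0.08 and -0.16 with ecd plus Xrp1 RNAi, -0.09, -0.13, -0.16 and -0.24 with ecd RNAi and 0.07, 0.06, -0.08 and -0.05 in control. Each ecd RNAi library thus stood above every control library for the autophagy genes and below every control library for the V-ATPase genes, where the nearest values were -0.09 and -0.08. Over the 17 V-ATPase genes with a mean of at least 50, the ecd RNAi libraries stood at -0.07, -0.06, -0.22 and -0.26 and the control libraries at 0.08, 0.07, -0.09 and -0.06, so these ranges overlapped. In pooled discs, fewer cells of a type and less RNA per cell cannot be told apart. Summed pouch markers stood at 33968 to 40746 normalized counts with ecd plus Xrp1 RNAi, 25270 to 31243 with ecd RNAi and 33297 to 36766 in control, and 3 of 5 passed as lower with ecd RNAi. Summed notum markers stood at 11371 to 12768, 6815 to 9028 and 10086 to 11977 in the same order of groups, and 4 of 5 passed as lower with ecd RNAi. The driver's own domain gene nub changed by -0.32 with ecd RNAi against control. Summed markers of adult muscle precursors stood at 2405 to 2889, 1550 to 1924 and 2011 to 2326, of hemocytes at 1072 to 1297, 1363 to 1596 and 1074 to 2050, and of trachea at 13208 to 14670, 13162 to 16857 and 10908 to 14538 normalized counts in the same order of groups. The part of disc composition in the results on both systems was not tested.

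The cargo receptor ref(2)P (FBgn0003231, chromosome 2L, 19542468 to 19545548, plus strand, genome build BDGP6), the p62 homolog that binds both ubiquitin-tagged cargo and Atg8a and is itself degraded by autophagy, showed the largest rise of all tested members with ecd RNAi. It had 1994, 1835, 1907 and 2163 normalized counts with ecd plus Xrp1 RNAi, 4981, 4728, 3817 and 4214 with ecd RNAi and 1981, 1948, 1755 and 1806 in control. Every ecd RNAi library was higher than every library of the other groups. The receptor changed by a log2 fold change of 1.24 ± 0.08 with ecd RNAi against control (2.36-fold, adjusted p = 1.1e-07) and -1.16 ± 0.08 between the RNAi groups (adjusted p = 2.5e-07). The span of ref(2)P overlaps CG10337, a gene on the opposite strand, which averaged 88.8 ± 11.8 normalized counts with ecd plus Xrp1 RNAi, 472 ± 17.3 with ecd RNAi and 92.2 ± 32.2 in control. The library kit marks strand, but whether the counting used it was not stated, so the level of CG10337 cannot be told apart from antisense reads of ref(2)P.

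Among the 4 genes of the Atg1 kinase complex tested, Atg17 and Atg101 rose, Atg1 fell and Atg13 did not pass with ecd RNAi. Atg17 (FBgn0037363, chromosome 3R, 5669713 to 5679930), the FIP200-related scaffold of the complex, had 1397, 1458, 1546 and 1829 normalized counts with ecd plus Xrp1 RNAi, 3207, 3027, 3105 and 2950.0 with ecd RNAi and 1475, 1527, 1527 and 1424 in control. The ecd RNAi libraries lay together and far above both other groups, which overlapped each other. Its log2 fold change was 1.05 ± 0.07 with ecd RNAi against control (adjusted p = 1.7e-07) and -0.99 ± 0.07 between the RNAi groups (adjusted p = 3.7e-07).

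Atg1 (FBgn0260945, chromosome 3L, 12784429 to 12805116), the kinase itself, went the other way. It had 2719, 2661, 2698 and 3069.5 normalized counts with ecd plus Xrp1 RNAi, 2672, 2246, 2058 and 2111 with ecd RNAi and 2870.0, 2860.2, 2722 and 2809 in control. All ecd RNAi libraries were below all control libraries, but ecd RNAi replicate 1 was close to them and lay within the ecd plus Xrp1 RNAi range. Atg1 changed by -0.32 ± 0.08 with ecd RNAi against control (adjusted p = 0.00424) and 0.30 ± 0.08 between the RNAi groups (adjusted p = 0.00625). Without the 4 fat-body-rich libraries both calls were lost, at -0.23 and 0.18.

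Atg101, a partner of Atg13 in the complex, averaged 425 ± 37.2 normalized counts with ecd plus Xrp1 RNAi, 497 ± 30.8 with ecd RNAi and 392 ± 29.3 in control, a log2 fold change of 0.34 ± 0.08 with ecd RNAi against control (adjusted p = 0.0045). Its fall with ecd plus Xrp1 RNAi, -0.23 ± 0.08 (adjusted p = 0.0425), was lost when any of 7 single libraries was left out: ecd plus Xrp1 RNAi replicates 1, 3 and 4, ecd RNAi replicates 1, 2 and 4, or control replicate 2, with changes of -0.19 to -0.23. The fall was also lost at -0.20 with array weights, and at -0.23 without the low-count filter or with only the RNAi groups fitted. The span of Atg101 overlaps S6KL on its own strand, which averaged 1083 ± 75.0, 1312 ± 11.7 and 1117 ± 39.1 in the same order of groups. S6KL changed by 0.23 ± 0.06 with ecd RNAi against control and -0.28 ± 0.06 between the RNAi groups, and both passed. Its part in the Atg101 counts was not tested. Of the 41 tested members, 18 overlap another gene. Atg13, the regulatory subunit, averaged 1505 ± 47.9, 1426 ± 119 and 1474 ± 73.7 in the same order of groups and had a log2 fold change of -0.05 with ecd RNAi (95% confidence interval -0.19 to 0.09).

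Both tested subunits of the Vps34 complex that the rule names rose with ecd RNAi. Atg6 (FBgn0264325, chromosome 3R, 24049180 to 24050782), the fly Beclin 1, had 501, 479, 503 and 508 normalized counts with ecd plus Xrp1 RNAi, 704, 675, 646 and 574 with ecd RNAi and 498, 446, 411 and 437 in control. Every ecd RNAi library exceeded every other library, while ecd plus Xrp1 RNAi and control overlapped. Atg6 changed by 0.53 ± 0.08 with ecd RNAi against control (adjusted p = 0.000104) and -0.38 ± 0.08 between the RNAi groups (adjusted p = 0.00157). Atg14, the subunit that directs the complex to autophagy, averaged 904 ± 30.3 with ecd plus Xrp1 RNAi, 934 ± 81.3 with ecd RNAi and 813 ± 8.00 in control. Its change with ecd RNAi, 0.20 ± 0.06 (adjusted p = 0.0207), was lost at 0.17 without ecd RNAi replicate 1 and at 0.15 without ecd RNAi replicate 2, and between the RNAi groups it was -0.04 (interval -0.18 to 0.09).

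Of the 4 genes that supply and bind the growing membrane, 3 rose with ecd RNAi. Atg18b (FBgn0032935, chromosome 2L, 21212322 to 21220572), a WIPI family protein that binds the lipid made by Vps34, had 335, 326, 348 and 297 normalized counts with ecd plus Xrp1 RNAi, 704, 714, 713 and 759 with ecd RNAi and 279.9, 357, 389.9 and 301 in control. The ecd RNAi group stood apart, and the ecd plus Xrp1 RNAi values lay inside the control range. Atg18b changed by 1.13 ± 0.10 with ecd RNAi against control (2.19-fold, adjusted p = 1.4e-06) and -1.14 ± 0.10 between the RNAi groups (adjusted p = 1.6e-06). The span of Atg18b overlaps 2 genes on its own strand. The snRNA gene snRNA:U4:39B averaged 5217 ± 1316, 6958 ± 2233 and 3652 ± 890.5 normalized counts with ecd plus Xrp1 RNAi, ecd RNAi and in control. CG8679 averaged 372 ± 17.8, 205 ± 19.9 and 376 ± 32.6 in the same order. Its paralog Atg18a averaged 1012 ± 114, 1359 ± 84.9 and 1045 ± 84.2 in these groups, a log2 fold change of 0.38 ± 0.09 with ecd RNAi against control (adjusted p = 0.00278) and -0.43 ± 0.09 between the RNAi groups (adjusted p = 0.00127).

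Atg9 (FBgn0034110, chromosome 2R, 16294400 to 16297232), the scramblase of the vesicles that seed the autophagosome, had 698, 669.6, 679 and 704 normalized counts with ecd plus Xrp1 RNAi, 1195, 996, 1079 and 996 with ecd RNAi and 871, 755, 709 and 767 in control. Here the ecd plus Xrp1 RNAi libraries were the lowest of the 3 groups, below every control library. Atg9 changed by 0.46 ± 0.08 with ecd RNAi against control (adjusted p = 0.000259), -0.63 ± 0.08 between the RNAi groups (adjusted p = 2.4e-05) and -0.17 ± 0.08 with ecd plus Xrp1 RNAi against control (adjusted p = 0.22). Atg2, the lipid transfer protein, did not pass with ecd RNAi, at 0.08 (interval -0.06 to 0.23).

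**Figure D2:**
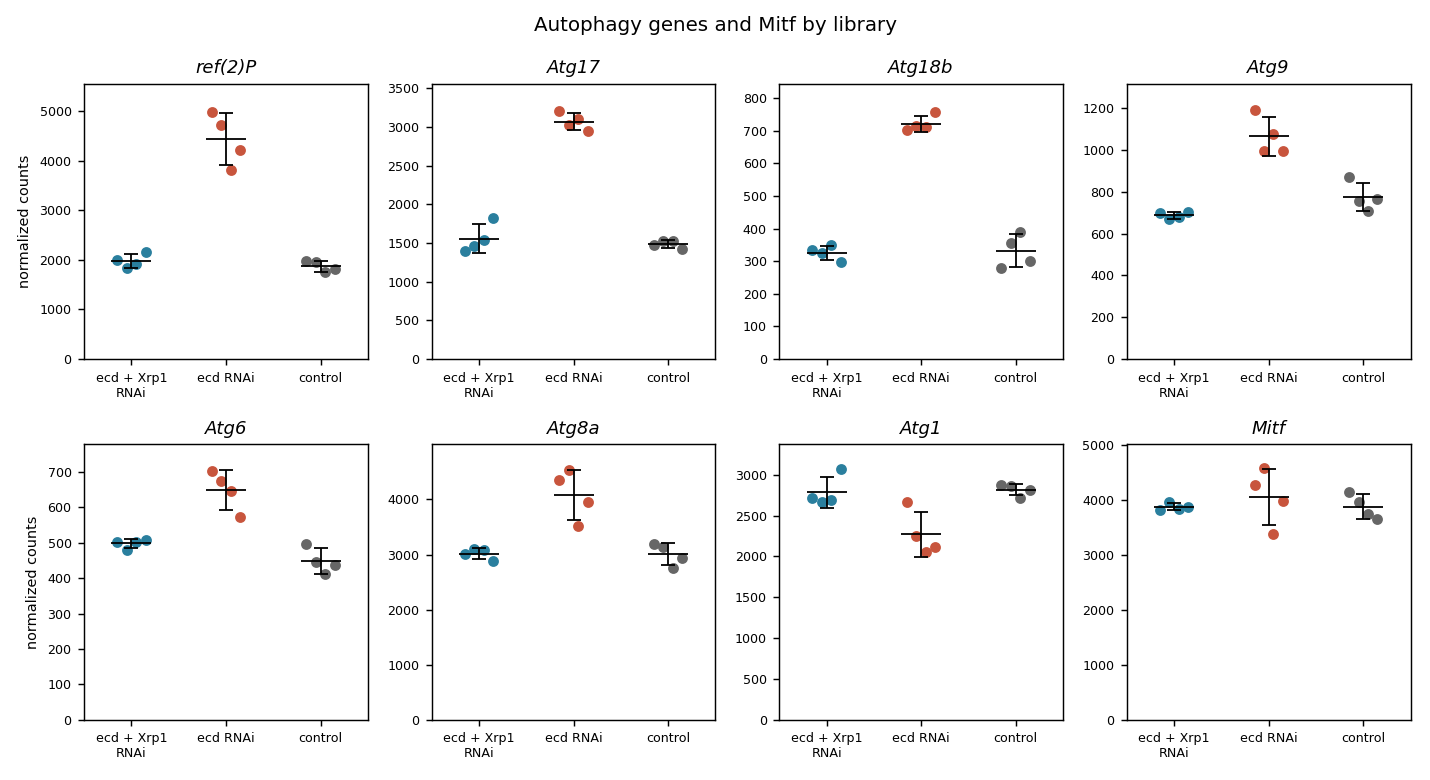
Normalized counts of 7 autophagy genes and Mitf, 1 point per library, with the mean ± SD of 4 libraries per group, from left to right ecd plus Xrp1 RNAi, ecd RNAi and control. The ecd RNAi libraries of ref(2)P lie between 3817 and 4981 and those of Atg17 between 2950.0 and 3207, above all other libraries, whereas those of Atg1 lie below control and those of Mitf span the other groups.

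The 9 tested genes of the 2 conjugation systems moved in both directions: 2 rose, 1 fell and 6 did not pass with ecd RNAi. Atg8a (FBgn0052672, chromosome X, 10764878 to 10768338), the ubiquitin-like protein that is coupled to the autophagosome membrane, had 3000.3, 3102, 3090.1 and 2875 normalized counts with ecd plus Xrp1 RNAi, 4355, 4528, 3513 and 3954 with ecd RNAi and 3192, 3134, 2753 and 2934 in control. All ecd RNAi libraries were above all others, with replicates 3 and 4 the lower pair, and the other groups overlapped. The log2 fold change of Atg8a was 0.44 ± 0.08 with ecd RNAi against control (adjusted p = 0.000391) and -0.43 ± 0.08 between the RNAi groups (adjusted p = 0.000498). Its paralog Atg8b stayed under the minimum, with 1.97, 0.813, 1.90 and 0 normalized counts with ecd plus Xrp1 RNAi, 0, 0, 2.45 and 1.00 with ecd RNAi and 1.03, 0, 0 and 0.872 in control.

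The second gene to rise was Atg4b, a protease that trims Atg8, with means of 542 ± 66.9, 751 ± 68.4 and 556 ± 27.9 normalized counts with ecd plus Xrp1 RNAi, ecd RNAi and in control and log2 fold changes of 0.43 ± 0.09 with ecd RNAi against control (adjusted p = 0.00216) and -0.47 ± 0.09 between the RNAi groups (adjusted p = 0.00115). Atg3 (FBgn0036813, chromosome 3L, 18748687 to 18750483), the E2-like enzyme that hands Atg8 to the lipid, had 798, 808, 855 and 889.6 normalized counts with ecd plus Xrp1 RNAi, 745, 687, 582 and 647 with ecd RNAi and 867, 822, 775 and 751 in control. All ecd RNAi values were below both other groups, the highest of them close to the lowest control. Atg3 changed by -0.28 ± 0.08 with ecd RNAi against control (adjusted p = 0.0115) and 0.34 ± 0.08 between the RNAi groups (adjusted p = 0.00368).

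Atg12 (FBgn0036255, chromosome 3L, 12136967 to 12137559), the ubiquitin-like protein coupled to Atg5, had 176, 195, 169 and 157 normalized counts with ecd plus Xrp1 RNAi, 139, 125, 106 and 127 with ecd RNAi and 152, 152, 143 and 146 in control. The 3 groups did not overlap: ecd plus Xrp1 RNAi was highest and ecd RNAi lowest. Its log2 fold change passed between the RNAi groups, 0.48 ± 0.11 (adjusted p = 0.00355), and was -0.26 ± 0.11 with ecd RNAi against control (adjusted p = 0.0822) and 0.23 ± 0.11 with ecd plus Xrp1 RNAi against control (adjusted p = 0.264). Without ecd RNAi replicate 1 the change with ecd RNAi against control was -0.31 and passed. Atg12 overlaps ND-SGDH on the opposite strand, whose log2 fold changes of -0.19 with ecd RNAi and 0.16 between the RNAi groups did not pass.

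The other conjugation genes did not pass with ecd RNAi against control: the E1-like enzyme Atg7 (0.14), the E2-like enzyme Atg10 (0.17), the protease Atg4a (-0.05), the Atg12 acceptor Atg5 (-0.14) and its partner Atg16 (-0.14). Of these, Atg16 passed between the RNAi groups at 0.20 ± 0.07 (adjusted p = 0.0403), with means of 932 ± 75.7 and 809 ± 60.0 normalized counts with ecd plus Xrp1 RNAi and ecd RNAi. The call for Atg16 was lost at 0.15 to 0.22 when any of ecd plus Xrp1 RNAi replicates 2, 3 and 4, ecd RNAi replicates 2, 3 and 4 or control replicate 4 was left out, and at 0.14 without the 4 fat-body-rich libraries. It was also lost at 0.17 under quantile normalization and at 0.12 with array weights. At 0.20 it was lost without the low-count filter, with only the RNAi groups fitted or with a replicate block. Leaving out 1 library also brought calls: Atg7 passed without ecd RNAi replicate 3, at 0.22 against control and -0.22 between the RNAi groups, Atg5 passed at -0.17 against control without control replicate 4, and Atg10 passed at -0.30 between the RNAi groups without ecd RNAi replicate 2. Atg7 also passed between the RNAi groups without the 4 fat-body-rich libraries, at -0.28.

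Mitf (FBgn0263112, chromosome 4, 1198852 to 1224467) had 3824, 3972, 3843 and 3879 normalized counts with ecd plus Xrp1 RNAi, 4277, 4585, 3378 and 3983 with ecd RNAi and 4154, 3969, 3743 and 3664 in control. The 4 ecd RNAi libraries held both the highest and the lowest value of all 12. The log2 fold change was 0.06 with ecd RNAi against control (interval -0.12 to 0.23, adjusted p = 0.607) and -0.06 between the RNAi groups (interval -0.23 to 0.12, adjusted p = 0.595). Between the RNAi groups it passed as lower under quantile normalization, at -0.18, and without the 4 fat-body-rich libraries, at -0.19. Against control it passed as higher under quantile normalization, at 0.14.

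All 9 tested V1 genes had negative log2 fold changes with ecd RNAi against control, and 5 of them passed, where 5476 of all 10179 genes were negative and 25.4% passed as lower. Vha13 (FBgn0283536, chromosome 3R, 19643018 to 19644386), subunit G of the peripheral stalk, had 1727, 1787, 1630.0 and 1597 normalized counts with ecd plus Xrp1 RNAi, 1393, 1398, 1171 and 1363 with ecd RNAi and 2115, 2169.7, 1877 and 1851 in control. The 3 groups did not overlap: control was highest, ecd plus Xrp1 RNAi was between and ecd RNAi was lowest. The log2 fold change of Vha13 was -0.59 ± 0.07 with ecd RNAi against control (0.664-fold, adjusted p = 2.7e-05) and 0.34 ± 0.07 between the RNAi groups (adjusted p = 0.00205).

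Vha14-1 (FBgn0262512, chromosome 2R, 15679426 to 15680084), subunit F of the central stalk, had 901, 922, 860.1 and 775 normalized counts with ecd plus Xrp1 RNAi, 656, 668, 549 and 606 with ecd RNAi and 1012, 905, 852 and 823 in control. Values with ecd RNAi were all below the others, and ecd plus Xrp1 RNAi overlapped control. Its log2 fold change was -0.53 ± 0.09 with ecd RNAi against control (adjusted p = 0.000221) and 0.48 ± 0.09 between the RNAi groups (adjusted p = 0.000549).

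Vha26 (FBgn0283535, chromosome 3R, 5591763 to 5595356), subunit E of the peripheral stalk, had 4363, 4741, 4233 and 4352 normalized counts with ecd plus Xrp1 RNAi, 4156, 3897, 3584 and 3457 with ecd RNAi and 4977, 4902, 4676 and 4667 in control. The ecd RNAi group was lowest, and its highest library lay just under the lowest ecd plus Xrp1 RNAi library. Vha26 changed by -0.35 ± 0.06 with ecd RNAi against control (adjusted p = 0.000426) and 0.23 ± 0.06 between the RNAi groups (adjusted p = 0.00804), the second of which was lost at 0.13 without the 4 fat-body-rich libraries and at 0.12 under quantile normalization.

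Vha36-1, subunit D of the central stalk, averaged 1442 ± 92.2 normalized counts with ecd plus Xrp1 RNAi, 1218 ± 95.6 with ecd RNAi and 1504 ± 147 in control, a log2 fold change of -0.30 ± 0.08 with ecd RNAi against control (adjusted p = 0.0071). Its change of 0.24 ± 0.08 between the RNAi groups (adjusted p = 0.0237) was lost at 0.20 to 0.22 without ecd plus Xrp1 RNAi replicate 1 or 3 or ecd RNAi replicate 3 or 4, and at 0.15 without the 4 fat-body-rich libraries. VhaSFD, the regulatory subunit H, averaged 2354 ± 75.1, 2000.1 ± 105 and 2199 ± 70.6 in the same order. VhaSFD changed by 0.24 ± 0.05 between the RNAi groups (adjusted p = 0.00184). Its change of -0.14 ± 0.05 against control (adjusted p = 0.0376) was lost at -0.11 to -0.13 without ecd RNAi replicate 3 or 4 or control replicate 1 or 2, and at -0.11 without the 4 fat-body-rich libraries. It was also lost at -0.07 under quantile normalization, and at -0.14 without the low-count filter or with only ecd RNAi and control fitted. The catalytic subunit A gene Vha68-2 (-0.03, interval -0.17 to 0.12) and the subunit B gene Vha55 (-0.07, interval -0.23 to 0.09), whose products form the ATP-splitting head, did not pass against control, and neither did the minor subunit A genes Vha68-1 (-0.19) and Vha68-3.

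**Figure D3:**
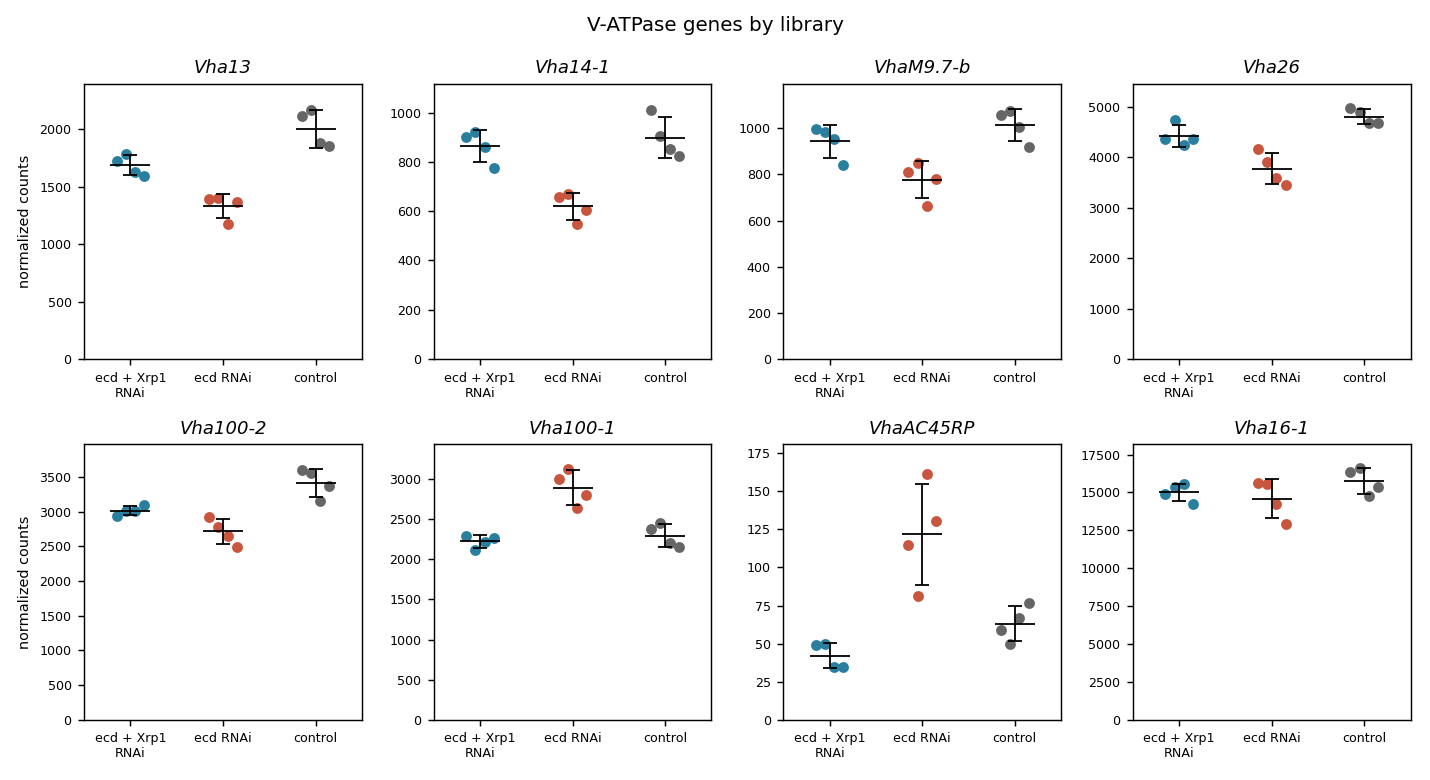
Normalized counts of 8 V-ATPase genes, 1 point per library, with the mean ± SD of 4 libraries per group, from left to right ecd plus Xrp1 RNAi, ecd RNAi and control. The ecd RNAi libraries of Vha13 lie between 1171 and 1398, under all others, those of Vha100-1 lie between 2637 and 3128, above all others, and those of Vha16-1 overlap both other groups.

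Among the 9 tested V0 genes, 1 rose and 2 fell with ecd RNAi. VhaM9.7-b (FBgn0028663, chromosome 3L, 21539862 to 21541215), a subunit e gene, had 998, 984, 952 and 839 normalized counts with ecd plus Xrp1 RNAi, 809, 852, 664 and 779.9 with ecd RNAi and 1059, 1073, 1008 and 919 in control. The ecd RNAi libraries were all below control and overlapped ecd plus Xrp1 RNAi by 1 library of each group. VhaM9.7-b changed by -0.39 ± 0.09 with ecd RNAi against control (adjusted p = 0.00225) and 0.28 ± 0.09 between the RNAi groups (adjusted p = 0.0162), the second of which was lost at 0.18 without the 4 fat-body-rich libraries.

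The subunit a genes Vha100-1 and Vha100-2 moved in opposite directions. Subunit a forms the path of protons through the membrane, and its isoforms place the pump in different compartments. Vha100-2 (FBgn0028670, chromosome 3R, 18390323 to 18399169) had 2943, 3009.8, 3004 and 3099 normalized counts with ecd plus Xrp1 RNAi, 2925, 2782, 2654 and 2496 with ecd RNAi and 3597, 3555, 3159 and 3364 in control. The 3 groups did not overlap, though the highest ecd RNAi library and the lowest ecd plus Xrp1 RNAi library were close. Its log2 fold change was -0.33 ± 0.06 with ecd RNAi against control (adjusted p = 0.000396) and 0.15 ± 0.06 between the RNAi groups (adjusted p = 0.0456). The second call was lost at 0.11 to 0.17 when any single library other than ecd RNAi replicate 1 or control replicate 1 or 3 was left out, and at 0.08 without the 4 fat-body-rich libraries. It was also lost at 0.05 under quantile normalization, at 0.11 with array weights, and at 0.15 without the low-count filter or with only the RNAi groups fitted.

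Vha100-1 (FBgn0028671, chromosome 3R, 29131193 to 29137980), which in flies is known from neurons, had 2297, 2116, 2212 and 2265 normalized counts with ecd plus Xrp1 RNAi, 3003, 3128, 2637 and 2803 with ecd RNAi and 2375, 2449.9, 2202 and 2152 in control. Values with ecd RNAi were above all others, and the other groups overlapped. Its log2 fold change was 0.33 ± 0.06 with ecd RNAi against control (adjusted p = 0.000732) and -0.38 ± 0.06 between the RNAi groups (adjusted p = 0.000305). The proteolipid ring gene Vha16-1, the V0 gene with the highest count, averaged 15009.5 ± 579, 14597 ± 1282 and 15782 ± 861 normalized counts with ecd plus Xrp1 RNAi, ecd RNAi and in control and did not pass, at -0.12 against control (interval -0.27 to 0.04). VhaPPA1-1 (-0.17), VhaAC39-1 (-0.18) and VhaM9.7-c (0.29), genes of subunits c'', d and e, did not pass either. VhaAC39-1 passed at -0.25 without ecd RNAi replicate 1. VhaM9.7-c passed between the RNAi groups without the 4 fat-body-rich libraries, at -0.33. With libraries scaled to their total of genes without rRNA, Vha16-1, VhaPPA1-1 and VhaAC39-1 passed as lower, at -0.18, -0.23 and -0.24.

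The accessory subunit Ac45 binds V0 and guides assembly and sorting of the pump. Its related gene VhaAC45RP (FBgn0051030, chromosome 3R, 30164692 to 30166419) had 48.8, 49.5, 34.8 and 34.8 normalized counts with ecd plus Xrp1 RNAi, 115, 81.2, 161 and 130.3 with ecd RNAi and 58.8, 49.98, 67.1 and 76.4 in control. The 3 groups did not overlap, with ecd RNAi highest and ecd plus Xrp1 RNAi lowest. Its log2 fold change was 0.91 ± 0.23 with ecd RNAi against control (1.88-fold, adjusted p = 0.00565) and -1.49 ± 0.23 between the RNAi groups (adjusted p = 0.000186). VhaAC45 itself (FBgn0262515, chromosome 2R, 9207561 to 9209774) had 2381, 2380.4, 2341 and 2291 normalized counts with ecd plus Xrp1 RNAi, 3097, 2868, 2648 and 2457 with ecd RNAi and 2903, 2726, 2484 and 2568 in control. It was lower in every ecd plus Xrp1 RNAi library than in every other library, while ecd RNAi and control overlapped. VhaAC45 changed by -0.23 ± 0.07 between the RNAi groups (adjusted p = 0.0167) and by 0.05 ± 0.07 with ecd RNAi against control (adjusted p = 0.611).

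Levels were set side by side per kilobase of exon. Vha16-1 led in every group, with 4878 ± 188 normalized counts per kb with ecd plus Xrp1 RNAi, 4744 ± 417 with ecd RNAi and 5129 ± 279.8 in control. Atg8a was the highest autophagy gene, with 1779.9 ± 61.7, 2412 ± 267 and 1772 ± 118 normalized counts per kb in the same order, and it stood above Vha13 (1412 ± 114) with ecd RNAi and below it (2125 ± 172) in control. Next among the autophagy genes came ref(2)P, with 825 ± 59.0, 1852 ± 218 and 782 ± 45.5 normalized counts per kb. The lowest tested autophagy gene was Atg18b in control (136 ± 20.8) and with ecd plus Xrp1 RNAi (134 ± 8.86), whereas with ecd RNAi it stood at 297 ± 10.1, beside Atg2 (297 ± 13.3) and Atg7 (296 ± 36.8). The V-ATPase genes fell into a high class, from VhaM9.7-c with 235 ± 41.1 normalized counts per kb in control upwards, and a low class from VhaAC45RP with 37.7 ± 6.76 downwards.

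Within families, the share of each paralog was taken per kb, so that it does not depend on how libraries were scaled. Vha100-1 made up 41.8% ± 1.19 of subunit a transcripts with ecd plus Xrp1 RNAi, 50.9% ± 1.73 with ecd RNAi and 39.3% ± 0.919 in control, and Vha100-2 made up most of the remainder, with 57.8% ± 0.885, 48.7% ± 1.43 and 59.8% ± 1.19. With ecd RNAi the share of Vha100-1 was 48.8% to 52.4% and thus higher in every library than in any other group. VhaM9.7-c made up 24.4% ± 1.24, 30.8% ± 3.25 and 21.8% ± 2.85 of subunit e transcripts. Atg18b made up 28.1% ± 3.04, 39.0% ± 2.06 and 27.6% ± 4.22 of Atg18 transcripts. Atg4b made up 42.2% ± 2.99, 51.3% ± 2.63 and 43.0% ± 2.04 of Atg4 transcripts with ecd plus Xrp1 RNAi, ecd RNAi and in control. In these 4 of the 7 families compared, the ecd RNAi libraries did not overlap either other group. For VhaM9.7-c the nearest values were almost equal, 26.24% in ecd RNAi replicate 4 and 26.20% in ecd plus Xrp1 RNAi replicate 3. A two-sided exact permutation test of the leading paralog's share (Vha100-2, VhaM9.7-b, Atg18a or Atg4a) gave p = 0.0286 for ecd RNAi against control and between the RNAi groups, the smallest p that 4 libraries against 4 allow. Over the 21 such tests in 7 families the adjusted p was 0.0667, so none passed. With p already at its smallest, a pass would have needed more of the 21 tests to reach it. These tests therefore cannot decide on 1 family alone. In the Ac45 family VhaAC45RP made up 2.10% ± 0.375, 5.10% ± 1.61 and 2.79% ± 0.616. The leading paralog VhaAC45 gave p = 0.0286 in the same exact test between the RNAi groups and p = 0.0571 for ecd RNAi against control. Vha68-2 made up 98.0%, 97.8% and 97.1% of subunit A transcripts.

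**Figure D4:**
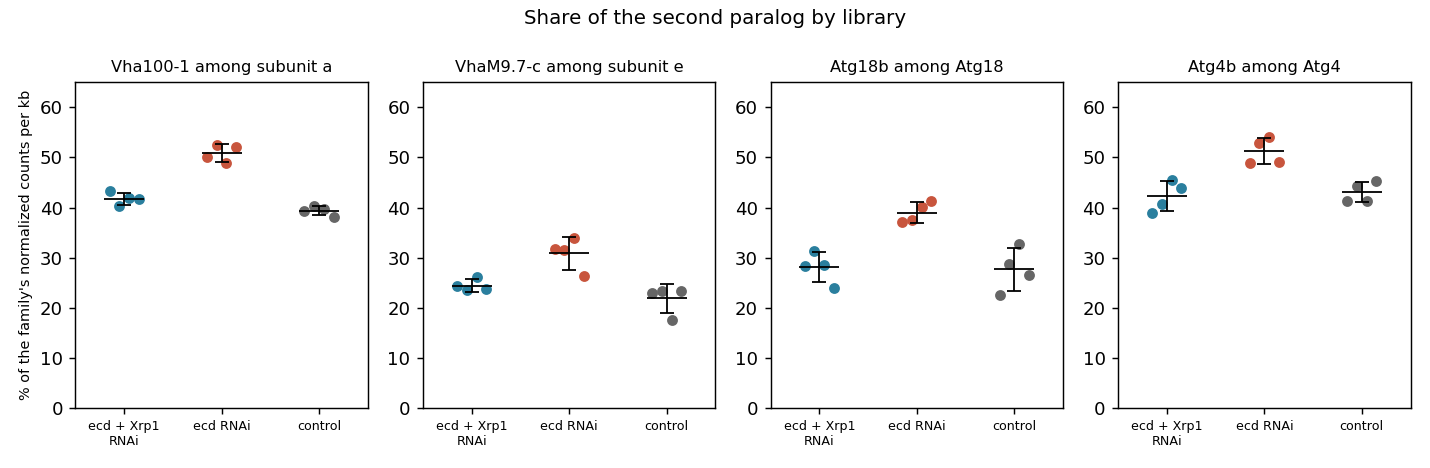
Share of 1 paralog (Vha100-1, VhaM9.7-c, Atg18b or Atg4b) among the normalized counts per kb of its family, in percent, 1 point per library with the mean ± SD of 4 libraries, from left to right ecd plus Xrp1 RNAi, ecd RNAi and control. The ecd RNAi libraries are the highest in all 4 panels, at 48.8% to 52.4% for Vha100-1 and 48.9% to 54.1% for Atg4b.

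The libraries labelled ecd plus Xrp1 RNAi were set against control to ask how far both systems differed from driver and reporter alone. Over all tested genes 4.39% passed, 2.29% as higher and 2.1% as lower. None of the 41 members passed in limma. An unadjusted limma p under 0.05 was held by 6 of them (2 autophagy and 4 V-ATPase genes), against 2187 of all 10179 genes. The authors' deposited table calls 2 of the 41 lower at an adjusted p under 0.05, against 575 of the 10179. Those 2 were Vha13, with a log2 fold change of -0.25 and an adjusted p of 0.0262 in the authors' deposited table, and Vha100-2, with -0.18 and 0.0355 in the authors' deposited table. The groups did not overlap for 8 members, against 16.9% of all genes: Vha13, Vha100-2, VhaAC45, VhaAC45RP and Atg9 were lower and Atg12, Atg14 and VhaSFD were higher with ecd plus Xrp1 RNAi. In limma Vha13 changed by -0.25 ± 0.07 (adjusted p = 0.0855), and it passed without ecd RNAi replicate 3, a library that enters this comparison only through the shared estimate of spread. The intervals of ref(2)P (0.08, -0.10 to 0.26), Atg17 (0.06, -0.10 to 0.22), Atg18b (-0.01, -0.23 to 0.21) and Atg8a (0.01, -0.16 to 0.17) each hold 0 and exclude the size of the change with the ecd RNAi label. The medians were 0.02 over the autophagy genes, -0.09 over the V-ATPase genes and 0.00 over all genes. Without the 4 fat-body-rich libraries, 3 V-ATPase genes passed as lower: Vha13 at -0.35, VhaAC45 at -0.26 and Vha100-2 at -0.25. The 2.1% of all genes that passed as lower is from all 12 libraries, and the share without the 4 is not given here.

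Vha100-4, Vha68-3 and VhaPPA1-2, the tested V-ATPase paralogs with a mean under 50, and Vha16-4 just under the minimum, varied with the fat body markers. Vha68-3 had 14.6, 14.6, 6.13 and 5.997 normalized counts with ecd plus Xrp1 RNAi, 4.45, 7.73, 37.0 and 27.6 with ecd RNAi and 7.95, 19.6, 70.6 and 46.3 in control. Vha100-4 had 9.75, 48.8, 1.02 and 4.80 with ecd plus Xrp1 RNAi, 1.11, 0, 44.4 and 15.8 with ecd RNAi and 1.99, 9.81, 86.0 and 49.7 in control. Both were highest in control replicate 3, and within ecd RNAi and control replicates 3 and 4 were the higher pair, but Vha100-4 was also high in ecd plus Xrp1 RNAi replicate 2, where fat body markers were low. VhaPPA1-2 had 3.91, 4.03, 0 and 4.79, then 7.75, 3.86, 40.1 and 14.8, then 8.12, 1.95, 29.1 and 14.7 in ecd plus Xrp1 RNAi, ecd RNAi and control replicates 1 to 4. The log2 fold changes of the 3 tested genes with ecd RNAi against control were -1.62 ± 1.40 for Vha100-4, -0.90 ± 0.75 for Vha68-3 and 0.28 ± 0.92 for VhaPPA1-2, and none passed in limma in any comparison. The authors' deposited table calls VhaPPA1-2 lower between the RNAi groups, at -2.39 with an adjusted p of 0.0406. The part of fat body in these levels was not tested. Each of the 3 lies beside the main gene of its family: Vha68-3 starts at 12978786 on chromosome 2L, after the end of Vha68-2 at 12978607.

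**Figure D5:**
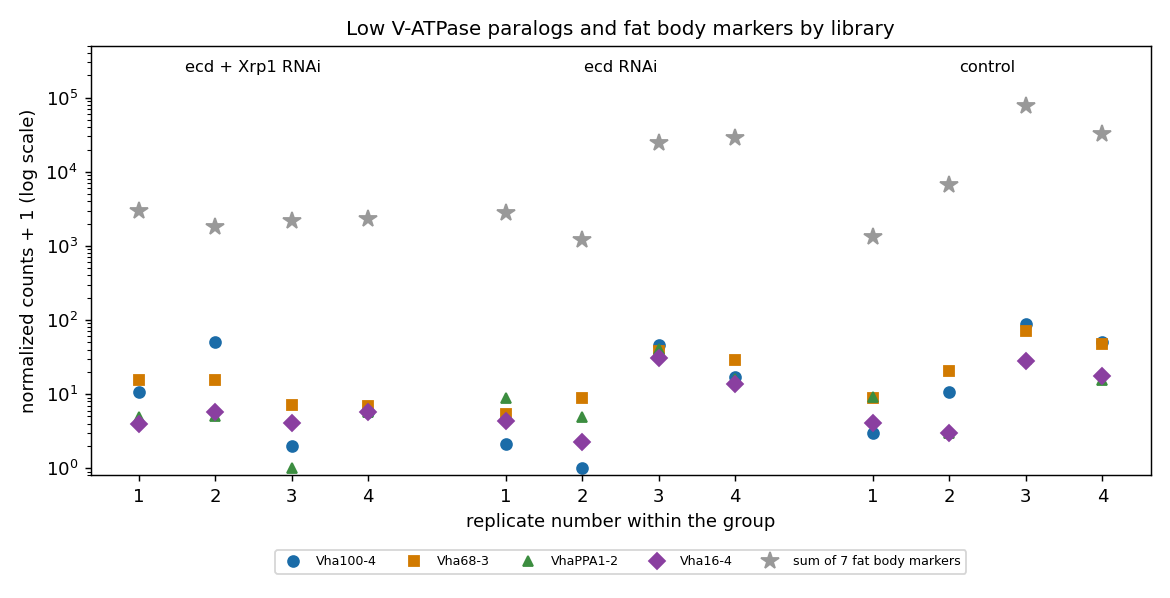
Normalized counts + 1 on a log scale for 4 low V-ATPase paralogs and for the sum of 7 fat body markers, by replicate within ecd plus Xrp1 RNAi, ecd RNAi and control. Markers and paralogs are high together in replicates 3 and 4 of ecd RNAi and control, where the marker sums are 24518 to 76585.

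The other untested members were at the edge of detection. Vha16-4 had at most 30.2 normalized counts, in ecd RNAi replicate 3, and the other 11 untested V-ATPase paralogs had at most 7.45 in any library, with VhaM9.7-d listed at 0 in all 12. These paralogs, such as Vha16-2, Vha36-2 and VhaAC39-2, encode second copies of subunits whose main gene is listed above.

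Intron retention in the authors' deposited table covered 105 introns of 26 member genes, 57 of them in autophagy genes and 40 in V-ATPase genes. Over all 17817 introns 2.32% in the authors' deposited table had an adjusted p under 0.05 with ecd RNAi against control. Among the 105 member introns 3 did, all higher, a share of 2.86% that is near the background. All 3 lay in V-ATPase genes, 7.5% of the 40 introns there, against 0% of the 57 in autophagy genes. The authors' deposited table gives for intron 1 of VhaAC45 (chromosome 2R, 9207659 to 9207747) a mean retention of 19.2% with ecd plus Xrp1 RNAi, 22.5% with ecd RNAi and 7.68% in control, with an adjusted p of 0.00216 for ecd RNAi against control. For intron 2 of Vha13 (chromosome 3R, 19643678 to 19643737) the authors' deposited table gives 2.99%, 4.84% and 1.80% in the same order, with an adjusted p of 0.0158. Intron 3 of VhaSFD (chromosome 2L, 16724794 to 16724858) stood at 4.08%, 6.64% and 1.81% in the authors' deposited table, with an adjusted p of 0.0319. The authors' deposited table marks the introns of VhaAC45 and VhaSFD as overlapping a known exon and lying near an antisense transcript. Of these genes Vha13 and VhaSFD also had lower transcript levels with ecd RNAi than in control, while VhaAC45 did not pass. Between the RNAi groups none of the 105 introns passed in the authors' deposited table, against 0.208% of all introns, and with ecd plus Xrp1 RNAi against control 1 did, that of VhaAC45 (adjusted p = 0.0313), against 1.26%. The median retention over the 57 introns of autophagy genes was 8.13%, 9.05% and 7.91%, and over all introns 7.89%, 8.08% and 7.02%, in ecd plus Xrp1 RNAi, ecd RNAi and control.

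Regulators of TOR and AMPK, which switch autophagy off and on with nutrients, had 10 of 28 tested genes higher and 2 lower with ecd RNAi against control, with a median of 0.10. Over all genes 22.4% passed as higher and 25.4% as lower, so the 12 that passed are no larger a share than the 47.8% of genes in general. Thor, the translation inhibitor 4E-BP, averaged 22.4 ± 7.66 normalized counts with ecd plus Xrp1 RNAi, 134 ± 27.3 with ecd RNAi and 12.9 ± 6.50 in control (log2 fold change 3.43 ± 0.42 with ecd RNAi against control, adjusted p = 2.2e-05). REPTOR, a transcription factor held inactive by TORC1, averaged 914 ± 109, 2944 ± 333 and 847 ± 69.5 (1.79 ± 0.10, adjusted p = 2.2e-08). The largest falls of this list were foxo, a transcription factor of insulin signalling, at -0.56, and the kinase gene mTor at -0.28. Of the 28, 4 rose and 9 fell between the RNAi groups (median -0.08), where 26.7% of all genes rose and 20.6% fell.

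Of 8 genes of the Vps34 complex and early factors outside the symbol rule, 3 rose and none fell with ecd RNAi against control, with a median of 0.02, against 22.4% higher and 25.4% lower over all genes. Rubicon, an inhibitor of the complex, changed by 0.53 and Pi3K59F, the catalytic Vps34 itself, by 0.44. Pi3K59F averaged 647 ± 50.1 normalized counts with ecd plus Xrp1 RNAi, 873 ± 69.3 with ecd RNAi and 642 ± 51.1 in control. Among 19 genes of fusion with the lysosome 5 rose and 6 fell (median 0.00), near the 22.4% and 25.4% of all genes. They were led by the adaptor Plekhm1 at 0.49 and the HOPS subunit lt at 0.33 and by Ccz1 of the Rab7 exchange factor at -0.42 and the early endosome GTPase Rab5 at -0.36. Between the RNAi groups 2 of the 8 fell and none rose, and of the 19 fusion genes 3 rose and 3 fell. Over all genes 26.7% rose and 20.6% fell between these groups.

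Lysosomal enzymes and membrane proteins, 23 tested, gave 6 higher and 5 lower with ecd RNAi against control, with a median of -0.12, so they passed about as often as the 47.8% of all genes. Swim, a secreted protein related to cathepsins, averaged 121 ± 21.1 normalized counts with ecd plus Xrp1 RNAi, 2895 ± 87.8 with ecd RNAi and 186 ± 85.2 in control (log2 fold change 4.05 ± 0.23 with ecd RNAi against control, adjusted p = 2.2e-08), and the tetraspanin Tsp42Ee changed by 0.72. The lysosomal membrane protein gene Cln7 averaged 669 ± 43.3, 321 ± 77.8 and 1038 ± 22.4 (-1.72 ± 0.13, adjusted p = 3.4e-07), and the mannosidase gene LManII changed by -0.95. Of the 23, 4 rose and 6 fell between the RNAi groups (median 0.01), where 26.7% of all genes rose and 20.6% fell. With ecd plus Xrp1 RNAi against control 2.1% of all genes were lower. Of the 23 genes 3 were lower in that comparison, among them Cln7 at -0.64 (adjusted p = 0.0159).

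Of 11 genes of mitophagy and selective receptors, 4 rose and 3 fell with ecd RNAi against control (median 0.09), against 22.4% higher and 25.4% lower over all genes. The mitophagy receptor gene BNIP3 averaged 2291 ± 123 normalized counts with ecd plus Xrp1 RNAi, 4316 ± 497 with ecd RNAi and 2420.3 ± 70.5 in control (0.83 ± 0.08, adjusted p = 1.9e-06), and park, the ubiquitin ligase Parkin, changed by 0.66. The falls were led by Fkbp39 at -0.56 and the mitochondrial fission factor Fis1 at -0.37. Between the RNAi groups 3 of the 11 rose and 4 fell, where 26.7% of all genes rose and 20.6% fell. Of 3 tested V-ATPase assembly factors 1 fell with ecd RNAi, against 25.4% of all genes, and rose between the RNAi groups, against 26.7%. This gene, ATP6AP2, the prorenin receptor homolog that helps assemble V0, averaged 2277 ± 114 with ecd plus Xrp1 RNAi, 1954 ± 155 with ecd RNAi and 2402.5 ± 189 in control, with log2 fold changes of -0.30 ± 0.07 (adjusted p = 0.00373) and 0.22 ± 0.07 (adjusted p = 0.0208).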

How the data were processed

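The values analysed are counts that the authors normalized with DESeq2, a signal obtained by dividing each library's counts by a size factor, deposited for 12 wing disc libraries in 3 labelled groups of 4. The authors used FastQC, cutadapt 3.5, kallisto 0.46.1 and DESeq2 1.34.0 on build BDGP6, per the submitters' processing notes. Per the labels' protocols the kit was stranded and depleted of ribosomal RNA, and the labels differ on single or paired reads. The authors' deposited table also gives a log2 fold change, a Wald score, and a p-value per gene from DESeq2, and a second deposited table gives intron retention as a fraction per group, printed here as a percent with no SD. A further 12 columns of per-sample intron values were not used.

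Of 23932 rows, 17869 were genes. Raw reads could not be recovered, since 46.5% to 72.9% of low values were whole multiples within a tolerance of 0.03, so a count model was not run and the depth in reads is unknown. Ribosomal RNA rows held 16.5% to 28.7% of the sums. The 6063 rows that are not genes stayed out of the tests, and held 5.65% to 7.40% of the sums with ecd RNAi and 0.452% to 0.645% in the other groups. Each gene with a mean of at least 10 was fitted on log2(normalized count + 1) in all 12 libraries with limma 3.58.1 (trend, R 4.3.3), and p-values were adjusted by the Benjamini-Hochberg method over 10179 genes. Every adjusted p is from limma unless credited to the authors' deposited table. Family shares per kb of exon were compared by exact permutation in scipy 1.17.1. The limma script was tested on simulated data. Values in every library are given for ref(2)P, Mitf, Atg8a, Atg8b, up to 5 members per system with the largest rise and fall among those that passed with ecd RNAi against control, and up to 3 between the RNAi groups; of other lists up to 2 genes in each direction are named. The members and gene lists were chosen with earlier results of these data known. Alternatives covered scaling, the low-count filter, the pseudocount, the groups fitted, array weights, a replicate block and leaving out each library. Further alternatives left out the 4 fat-body-rich libraries, or the genes whose values equalled those of another gene in every library. These further alternatives were chosen after seeing the data.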

Additional observations from a re-analysis of the deposited data

Results flagged for a closer look

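Of 123 groups of 4 libraries examined among the tested members, 3 held a library far from the other 3, where chance alone flags about 1 group in 20. Atg16 had 898.3 normalized counts in ecd RNAi replicate 1, above the other ecd RNAi libraries. Atg1 had 3069 normalized counts in ecd plus Xrp1 RNAi replicate 4, above the others of that group. Vha13 had 1171 normalized counts in ecd RNAi replicate 3, below the others of that group.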

How the results depend on the processing

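Over 23 alternative settings no member changed its direction after passing: 2712 values kept their side of the threshold, 57 lost it and 39 gained it. With ecd RNAi against control, lower autophagy genes numbered 4 under quantile normalization, 4 under the total of genes without rRNA and 1 without the 4 fat-body-rich libraries, against 2. Under the total without rRNA, the V-ATPase genes Vha16-1 (-0.18), VhaPPA1-1 (-0.23) and VhaAC39-1 (-0.24) also passed as lower. That total moved the median of all genes to -0.10, from which changes under it are to be read. Between the RNAi groups, without those 4 libraries 2 autophagy and 3 V-ATPase genes were higher, against 4 and 7. With ecd plus Xrp1 RNAi against control, 737 genes passed under quantile normalization and 1486 with array weights, against 447. There V-ATPase genes passed as lower numbered 3 under quantile normalization, 2 under the total without rRNA, 3 with array weights, 1 with the replicate block and 3 without the 4 libraries, against 0, and 1 autophagy gene, Atg14, passed as higher with array weights. The causes were not tested. Leaving out 1 library gave 4429 to 4993 genes, 9 to 11 higher and 2 to 3 lower autophagy genes, and 2 to 2 higher and 6 to 8 lower V-ATPase genes with ecd RNAi against control. Between the RNAi groups it gave 4280 to 4921 genes, 3 to 4 higher and 8 to 10 lower autophagy genes, and 5 to 7 higher and 3 to 3 lower V-ATPase genes. With ecd plus Xrp1 RNAi against control it gave 242 to 585 genes and 0 to 1 lower V-ATPase genes. Same-numbered ecd RNAi and control libraries correlated positively in all 4 pairs, at 0.0661 to 0.488, and 3 of these were over 0.1. The pairs of ecd plus Xrp1 RNAi with control ran from -0.277 to 0.0302 and those with ecd RNAi from -0.378 to -0.0963, and 1 of 24 comparisons had its own number as best match. These numbers are those of the sample titles, and the submitters' column names number some libraries otherwise. A pairing by the column names was not tested. The labels do not say that a number marks a shared batch, so the numbers are not taken as pairing the libraries. With the replicate block 4865, 4868 and 429 genes passed in the comparisons of ecd RNAi with control, between the RNAi groups and of ecd plus Xrp1 RNAi with control. The block brought VhaAC39-1 past the threshold with ecd RNAi against control, at -0.18, so that 8 V-ATPase genes were lower in place of 7. It also brought Vha13 past it with ecd plus Xrp1 RNAi against control, at -0.25, and lost Atg16 between the RNAi groups, at 0.20. It changed no other call among the members.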
